A study of Mus musculus with 4 samples.

Results

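The genes described here are 9 that mark cortical astrocytes and carry out their coupling and contact functions, namely Aldh1l1, Gja1, Gjb6, Aqp4, S100b, Gpr37l1, Fgfr3, Hepacam and Ndrg2. They were taken by name, by a rule that uses no measured value, although earlier results of these data were known when the list was drawn up, and they make up 9 of the 29224 genes in the count table. RNA was sequenced from astrocytes of the cerebral cortex of mice at postnatal day 5 (P5), captured on magnetic beads coated with an antibody to the surface antigen ACSA-1 (GLAST, the product of Slc1a3). The control group, Ezh2 f/f, carried floxed alleles of Ezh2, and the conditional knockout group, Ezh2 cKO, carried the same floxed alleles together with Aldh1l1-icre, a Cre recombinase under control of Aldh1l1, so that one of the 9 genes also names the Cre driver. Each group held 2 libraries, 4 in all. The sex of the animals, how many went into a library and whether the libraries of a group came from separate animals are not given in the sources used here, nor is the strain of these animals, although the study names C57BL/6J and ICR mice. The p-values below therefore measure only the spread between these libraries, which may be technical.

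Astrocytes are joined into a network by gap junctions, channels of connexin proteins that let ions and small molecules pass from cell to cell. Where their processes end on blood vessels, they form endfeet, which hold the water channel encoded by Aqp4, potassium channels and the adhesion molecules that keep these proteins in place. Aldh1l1, S100b and Ndrg2 encode cytoplasmic proteins that are widely used to label astrocytes, and Gpr37l1 and Fgfr3 encode receptors of the astrocyte surface. Ezh2 is the catalytic subunit of Polycomb repressive complex 2, a histone methyltransferase that is bound up with gene silencing.

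RefSeq promoter windows of 250 bases upstream of the annotated start (GRCm38.p6) were at hand for 8 of the 9 genes, 11 windows in all, and 5 are printed here because they belong to the genes with the largest rises that have a window (Gpr37l1, S100b and Gja1) and to those that did not pass the test (Hepacam and Aldh1l1). Each runs 5′ to 3′ on the strand of its gene, in lower case, with every CG dinucleotide in capitals.
Gpr37l1 (chr1:135167682-135167931, minus strand): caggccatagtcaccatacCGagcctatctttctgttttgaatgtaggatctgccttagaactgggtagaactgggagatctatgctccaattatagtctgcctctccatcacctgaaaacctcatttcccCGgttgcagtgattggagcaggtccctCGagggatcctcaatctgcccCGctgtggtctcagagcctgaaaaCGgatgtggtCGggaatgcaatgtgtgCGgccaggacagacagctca
S100b (chr10:76253586-76253835, plus strand): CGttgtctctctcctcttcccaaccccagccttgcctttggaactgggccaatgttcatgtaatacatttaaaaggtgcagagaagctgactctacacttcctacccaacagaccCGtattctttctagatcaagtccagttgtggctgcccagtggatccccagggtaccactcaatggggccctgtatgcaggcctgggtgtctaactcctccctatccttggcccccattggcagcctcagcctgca
Gja1 (chr10:56377050-56377299, plus strand): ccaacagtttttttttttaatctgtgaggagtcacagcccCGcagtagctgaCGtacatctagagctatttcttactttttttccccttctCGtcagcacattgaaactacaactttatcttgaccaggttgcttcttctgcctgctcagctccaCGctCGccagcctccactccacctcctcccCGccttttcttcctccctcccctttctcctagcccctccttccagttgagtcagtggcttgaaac
Hepacam (chr9:37367356-37367605, plus strand): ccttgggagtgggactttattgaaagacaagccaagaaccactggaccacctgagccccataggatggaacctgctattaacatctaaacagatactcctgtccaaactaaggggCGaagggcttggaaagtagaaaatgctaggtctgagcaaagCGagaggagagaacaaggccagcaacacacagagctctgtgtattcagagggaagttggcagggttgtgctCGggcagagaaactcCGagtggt
Aldh1l1 (chr6:90550543-90550792, plus strand): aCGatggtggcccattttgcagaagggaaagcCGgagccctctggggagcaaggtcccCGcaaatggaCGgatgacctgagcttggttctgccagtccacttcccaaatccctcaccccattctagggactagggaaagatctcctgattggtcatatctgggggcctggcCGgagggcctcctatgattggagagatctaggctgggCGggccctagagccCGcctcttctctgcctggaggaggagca
These windows held 7 CG dinucleotides for Gpr37l1, 2 for S100b, 6 for Gja1, 4 for Hepacam and 7 for Aldh1l1, against a median of 6 (quartiles 2 and 16) over all 32851 windows of 27025 genes. Gpr37l1 and Aldh1l1, at opposite ends of the range of change described below, thus held the same number. The windows not printed held 5 for Gjb6, 19 and 24 for the pair of Fgfr3 starts, and 10, 9 and 16 for the 3 Ndrg2 starts. A set of 4 motifs was searched on both strands. The TATA box TATAAA, present in 12.4% of all windows, occurred in 1 window of Ndrg2, on the strand opposite the gene. The STAT motif TTCNNNGAA (7.02% of all windows), the SOX motif ACAATG (10.7%) and the palindromic NFI motif (0.0365%) had no match in any of the 11 windows.

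The libraries were of like depth, with 16273308 to 17522152 counted reads each, so that 3 counts, the most that a count of 0 allows, equal 0.171 to 0.184 CPM (counts scaled to 1000000 per library). Such limits cover counting error only. Ezh2 itself was read 434 and 327 times in Ezh2 f/f, against 211 and 164 times in Ezh2 cKO. Its level fell from 23.1 ± 3.25 to 10.7 ± 1.77 CPM (SD, n = 2 libraries in each group), a log2 fold change of -1.11 (SE 0.16) with an adjusted p of 3.26e-05 in edgeR's quasi-likelihood test, and the groups did not overlap. Reads were summed over the whole gene and do not isolate its floxed part.

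All 9 genes passed the filter on low counts. In Ezh2 cKO 7 of them rose (77.8%), 0 fell and 2 did not pass the test at an adjusted p of 0.05 (edgeR), where 34.7% of all 16793 tested genes were called higher and 33.6% lower. The count of 0 lower was also found at an unadjusted p of 0.05 and with DESeq2. Of the 7, 4 rose at least 2-fold, as 19.0% of tested genes did, and 3 rose by less. The median log2 fold change of the 9 genes was 0.99, against 0.02 over all tested genes. They did not move as a block, since single values ran from -0.15 (Aldh1l1) to 5.94 (Gpr37l1). In 8 genes both Ezh2 cKO libraries lay above both Ezh2 f/f libraries, as in 42.8% of tested genes, and in 1, Aldh1l1, both lay below, as in 41.5%. The largest difference between libraries of a group was 0.54 on the log2 scale (Aqp4 in Ezh2 f/f). With 2 libraries against 2, an exact permutation test of a single gene cannot go below p = 0.333, so the calls rest on the spread that edgeR estimates over all genes. In bulk libraries such as these, fewer cells of a type and less RNA per cell cannot be told apart.

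**Figure D1:**
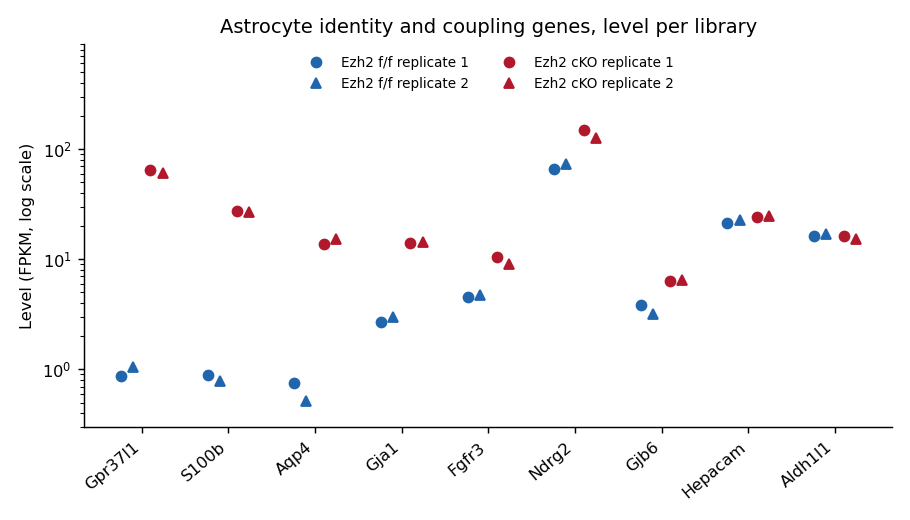
Level of each of the 9 genes (FPKM, fragments per kilobase of gene and 1000000 reads, log scale) in each library, with Ezh2 f/f in blue and Ezh2 cKO in red, circles for replicate 1 and triangles for replicate 2. Gpr37l1, S100b and Aqp4 sat between 0.513 and 1.06 FPKM in Ezh2 f/f and between 13.7 and 65.0 FPKM in Ezh2 cKO, while the points of Hepacam and Aldh1l1 lay close together.

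**Figure D2:**
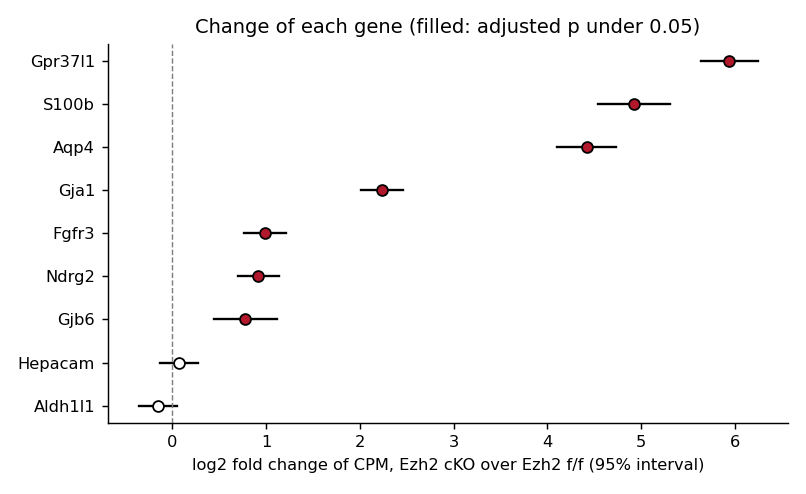
Log2 fold change of CPM in Ezh2 cKO over Ezh2 f/f for each gene, with its 95% interval from edgeR. Filled points passed an adjusted p of 0.05, and the intervals of the 2 open points, Hepacam and Aldh1l1, include 0.

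Markers of other cells were read in all 4 libraries, and several moved with the genotype. In Ezh2 f/f, 20 neuron markers summed to 2620 and 2653 FPKM, above the 1089 and 1097 FPKM of 30 other astrocyte genes, whereas in Ezh2 cKO the neuron markers summed to 2604 and 2589 FPKM and the astrocyte genes to 3341 and 2952. In CPM the neuron markers summed to 8178 and 8269 under Ezh2 f/f and to 10813 and 10618 under Ezh2 cKO. Most of that rise came from a single gene, Camk2a, at 253 and 247 CPM in Ezh2 f/f and 2137 and 1960 CPM in Ezh2 cKO. The most abundant neuron marker, Tubb3 (a neuronal tubulin), was read 60862 and 57681 times in Ezh2 f/f, against 39585 and 37613 times in Ezh2 cKO. Stmn2, the next in abundance, rose by 0.47 on the log2 scale. Of the 20 neuron markers 9 rose (45.0%, background 34.7%) and 7 fell (35%, background 33.6%). Those that rose most were Slc17a7, the vesicular glutamate transporter (3.44), and Camk2a, a synaptic kinase (3.04), both of mature excitatory neurons, and those that fell most were Eomes (-3.46) and Sox11 (-2.99), transcription factors of neuronal precursors and young neurons. Glial and immune markers other than those of astrocytes were mostly higher, against a background of 34.7%. All 12 markers of oligodendrocyte precursors rose (100%), with sums of 245 and 245 CPM and then 793 and 721. Of 11 tested markers of oligodendrocytes 10 rose (90.9%), with sums of 111 and 126 CPM and then 956 and 834. Of 14 microglia markers 13 rose (92.9%), with sums of 126 and 129 CPM and then 416 and 352. Among the oligodendrocyte markers Opalin was at 0 in both Ezh2 f/f libraries and at 11 and 8 reads in Ezh2 cKO. Of 10 endothelial markers 3 were higher (30%, background 34.7%) and 1 lower (10%, background 33.6%), with sums of 273 and 263 CPM and then 310 and 266. Of 9 tested mural markers 4 were higher (44.4%) and 1 lower (11.1%), with sums of 264 and 281 CPM and then 443 and 388. Markers of ependyma and choroid plexus went the other way, with 6 of 9 tested lower (66.7%) and 2 higher (22.2%). They summed to 417 and 807 CPM in Ezh2 f/f, against 23.6 and 21.6 in Ezh2 cKO. Most of the Ezh2 f/f sums came from a single gene, Ttr, the transthyretin of the choroid plexus. It was read 6326 and 11598 times in Ezh2 f/f, against 5 and 12 times in Ezh2 cKO. The fall of the sum is thus mainly that of Ttr. Foxj1, the next in abundance, went from 19.6 ± 4.91 to 10.1 ± 2.10 CPM. Some genes stand in more than a single list (Cspg4 with precursors and mural cells, Slc1a3 with astrocytes and radial glia, Aqp1 and Folr1 with choroid plexus and with the endfoot and folate genes below). The part of these shifts in the changes of the 9 genes was not tested. Both libraries of a group shared them, so the cell makeup of the preparations and the genotype cannot be told apart in any difference between groups given here.

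**Figure D3:**
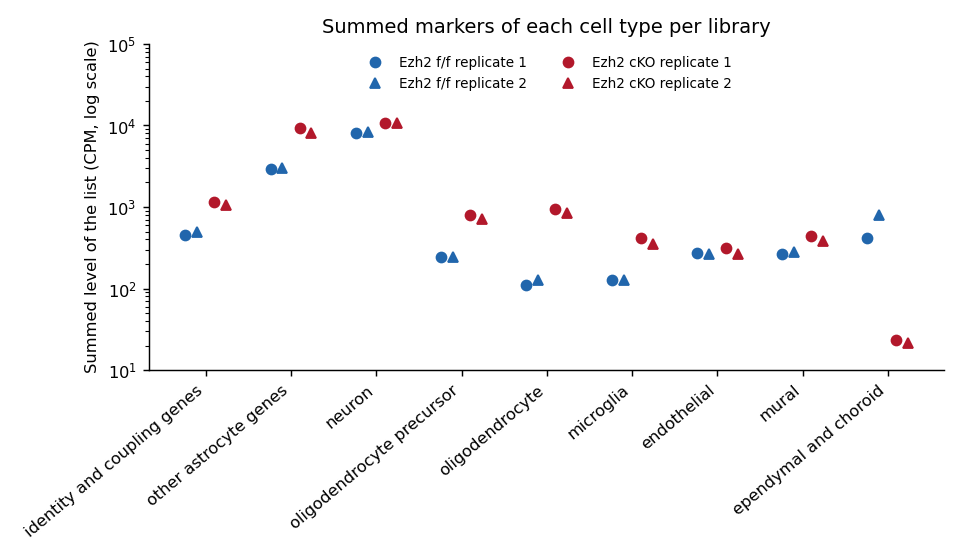
Summed level (CPM, log scale) of the 9 genes, of 30 other astrocyte genes and of the markers of 7 other cell types in each library, coloured as in the plot of levels. The sums for oligodendrocyte precursors, oligodendrocytes and microglia were higher in both Ezh2 cKO libraries, and those for ependyma and choroid plexus were lower, at 23.6 and 21.6 CPM. Most of the Ezh2 f/f sum for ependyma and choroid plexus was Ttr.

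Gja1 and Gjb6 encode the connexins that form the gap junctions of astrocytes. Positions here and below are those deposited with the counts, for which the submitters name build mm9. Whether they are those of mm9 was not tested. For none of the 9 genes are they those of GRCm38, the build of the windows above. Gja1 (chromosome 10, 56253426 to 56278609, plus strand) stood at 28.1 and 31.9 CPM in Ezh2 f/f and at 142 and 141 CPM in Ezh2 cKO. It rose 4.72-fold, a log2 fold change of 2.24 (95% interval 2.02 to 2.46, adjusted p = 5.75e-10), with no overlap between groups. Gjb6 (chromosome 14, 57360760 to 57371068, minus strand) stood at 10.5 and 8.91 CPM in Ezh2 f/f and at 16.6 and 16.8 CPM in Ezh2 cKO. Its rise was smaller, 1.72-fold or 0.78 on the log2 scale (0.44 to 1.11, adjusted p = 0.000531), and its groups did not overlap either. Per length, Gja1 was below Gjb6 in both Ezh2 f/f libraries (Gja1 over Gjb6 in FPKM, 0.695 and 0.935) and above it in both Ezh2 cKO libraries (2.24 and 2.19). The deposited FPKM of Gja1 rest on a length of 10257 bases, far more than the 3182 of its principal transcript in the GENCODE M21 annotation. With principal transcript lengths, an alternative chosen after the values were seen, the mean ratio was 2.07 in Ezh2 f/f, against 5.62 in Ezh2 cKO, so that Gja1 was the more abundant in both groups. The place of Gja1 against Gjb6 in Ezh2 f/f thus depends on the length used. The change of the ratio between groups does not depend on which of these lengths is used, since each is the same in every library. Whether the groups differ in the transcripts they use was not tested.

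Of the 21 other connexin and pannexin genes 19 were in the table and 11 had enough reads for a test. Of these 8 were higher (72.7%, background 34.7%) and 2 lower (18.2%, background 33.6%), with a median log2 fold change of 1.15. Gjc3, a connexin known from oligodendrocytes, was read 13 and 4 times in Ezh2 f/f, against 158 and 170 times in Ezh2 cKO (log2 fold change 4.16, adjusted p = 1.03e-07). Gjb1, also a connexin of oligodendrocytes, rose by 1.24 on the log2 scale, beside the rise of the oligodendrocyte markers given above. Gjb2, the third connexin ascribed to astrocytes, went from 6.14 ± 0.846 to 11.9 ± 2.68 CPM (0.96, adjusted p = 0.000754). Gjd2, the main neuronal connexin, rose by 1.07, Gjd3 by 2.05 and Gja5, a connexin of arterial endothelium, by 1.80. Gja4, another connexin of vessels, went from 11.5 to 13.6 CPM and did not pass the test (0.24, adjusted p = 0.19). Both genes that fell were abundant: Gjc1 dropped from 864 and 657 reads to 311 and 298 (-1.41) and Panx1 from 2140 and 1857 to 1160 and 1125 (-0.90). Panx2, a pannexin of neural cells, rose from 613 and 577 to 2676 and 2367 reads (1.99). Both directions were thus found within the family.

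Aqp4 encodes the water channel of the endfeet. Its reads were few under Ezh2 f/f, with 82 and 52, and it was read 1478 and 1582 times in Ezh2 cKO (chromosome 18, 15522553 to 15544039, minus strand). Its level went from 4.06 ± 1.05 to 87.6 ± 5.29 CPM, a rise of 21.6-fold and 4.42 on the log2 scale (4.11 to 4.74, adjusted p = 4.14e-11). It ranked 72 by fold change among the 16793 tested genes. An antisense lncRNA within its span, Gm50048, held 0 and 2 reads in Ezh2 f/f, against 9 and 18 in Ezh2 cKO, and since the strand setting of the counting is not given in the sources used here, reads from opposite strands may not have been told apart.

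Hepacam (GlialCAM; chromosome 9, 37278647 to 37297871, plus strand), an adhesion molecule of astrocyte contacts and endfeet, did not follow Aqp4. It stood at 73.1 and 78.2 CPM in Ezh2 f/f and at 80.2 and 78.8 CPM in Ezh2 cKO. The groups did not overlap, but the log2 fold change was 0.07 with a 95% interval of -0.13 to 0.28, and it did not pass the test (adjusted p = 0.515). Its partners at the membrane moved apart from each other. Mlc1, the membrane protein that Hepacam anchors, rose from 1208 and 1174 to 4124 and 3484 reads (1.58, adjusted p = 1.01e-08), and Clcn2, a chloride channel that it binds, fell from 2007 and 1894 to 1311 and 1114 (-0.78, adjusted p = 9.31e-06). All 21 genes of the endfoot complex and its neighbours were tested, of which 13 were higher (61.9%, background 34.7%) and 7 lower (33.3%, background 33.6%), with a median log2 fold change of 0.64. Without Ezh2 cKO replicate 2 the number lower was 4. Among those that rose were the sodium bicarbonate cotransporter Slc4a4 (2.21), the dystrobrevin Dtna (1.82), a part of the dystrophin complex that holds Aqp4 at the endfoot and the potassium channel Kcnj10 (1.69). Those that fell included the matrix protein agrin (Agrn, -0.42), its receptor dystroglycan (Dag1, -0.36) and the laminins Lamb2 (-0.33) and Lamc1 (-0.28). Lama2, another laminin of the list, did not fall and did not pass the test (0.26, adjusted p = 0.176). The channel Trpv4 also fell (-1.03). Aqp1, the water channel of the choroid plexus, fell from 227 and 234 to 69 and 72 reads (-1.80), beside the fall of the choroid plexus markers.

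Gpr37l1 (chromosome 1, 135087972 to 135095419, minus strand), an orphan receptor of the G protein-coupled class, had the largest change of the 9. It was read 35 and 39 times in Ezh2 f/f, against 2555 and 2315 times in Ezh2 cKO. Its level went from 2.27 ± 0.306 to 139 ± 7.99 CPM, 61.5-fold or 5.94 on the log2 scale (5.64 to 6.24, adjusted p = 4.40e-12). It ranked 30 by fold change and 2 by p-value among the 16793 tested genes. By FPKM it went from ranks 12376 to 12922 of all genes in the Ezh2 f/f pair to ranks 818 to 857 in Ezh2 cKO. Its paralogue Gpr37, a receptor that is prominent in oligodendrocytes, rose from 111 and 123 to 198 and 274 reads (0.92, adjusted p = 0.000895), and Psap, which encodes prosaposin, the protein proposed as a ligand of both receptors, from 19096 and 18523 to 23485 and 23552 reads (0.23, adjusted p = 0.0103).

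Fgfr3, a receptor tyrosine kinase for fibroblast growth factors, stood at 33.5 and 35.3 CPM in Ezh2 f/f and at 73.6 and 62.6 CPM in Ezh2 cKO (chromosome 5, 33879018 to 33894412, plus strand). It rose 1.98-fold, 0.99 on the log2 scale (0.76 to 1.21, adjusted p = 1.41e-06). The other receptors of the family went elsewhere: Fgfr1 fell from 2454 and 2178 to 1087 and 1139 reads (-1.15), Fgfr4 fell from 47 and 42 to 12 and 22 (-1.47), and Fgfr2 stood at 468 and 425 and then 412 and 407 reads and did not pass the test (-0.22, adjusted p = 0.115). Fgfrl1, which lacks the kinase, rose by 0.87. Of the 20 tested genes of the pathway beside Fgfr3, 9 were higher (45.0%, background 34.7%) and 5 lower (25%, background 33.6%), and the median log2 fold change was 0.05. Without Ezh2 cKO replicate 1 the number higher was 4. The ligands Fgf1 (25 and 29 reads, then 378 and 321, log2 fold change 3.59) and Fgf2 (17 and 11 reads, then 41 and 30, log2 fold change 1.25) rose most. Of the target genes that report on receptor activity, Spry2, Spry4, Etv1, Etv4 and Dusp6 rose by 0.43 to 0.55 and Spry1 fell by 0.86. Etv5, Il17rd, Spred1 and Spred2 did not pass the test. Among the other genes of the list, Frs2 (-0.74) and Frs3 (-0.82) fell. An unclassified transcript on the strand opposite Fgfr3, G630022F23Rik, held 53 and 42 reads in Ezh2 f/f, against 20 and 10 in Ezh2 cKO.

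S100b encodes a calcium-binding protein of the astrocyte cytoplasm. It was read 23 and 19 times in Ezh2 f/f, against 708 and 658 times in Ezh2 cKO (chromosome 10, 76089687 to 76096993, plus strand). Its level went from 1.28 ± 0.0972 to 39.1 ± 1.54 CPM, 30.6-fold or 4.92 on the log2 scale (4.54 to 5.31, adjusted p = 1.03e-10). Its interval overlapped that of Aqp4 but not that of Gpr37l1. Dip2a, which overlaps it on the opposite strand, held 905 and 764 reads in Ezh2 f/f, against 1045 and 1069 in Ezh2 cKO. Its counts thus stayed within 764 to 1069 in all 4 libraries. S100b is also expressed in oligodendrocyte precursors, whose markers rose as given above.

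Ndrg2, a member of the N-myc downstream regulated family, was the most abundant of the 9 in every library. It stood at 228 and 256 CPM in Ezh2 f/f and at 499 and 415 CPM in Ezh2 cKO (chromosome 14, 52142728 to 52151615, minus strand), a rise of 1.89-fold, 0.92 on the log2 scale (0.70 to 1.14, adjusted p = 2.06e-06). Of the other S100, NDRG and GPR37 family genes, including the ligand Psap, 17 of 20 were in the table and 12 were tested, with 10 higher (83.3%, background 34.7%) and 1 lower (8.33%, background 33.6%) and a median log2 fold change of 1.40. S100a1 (2.63) and S100a13 (2.27) rose most among those with a mean of at least 1 CPM, and S100a11 fell (-0.44, adjusted p = 0.0184), though it was not called without Ezh2 cKO replicate 2. Ndrg3 (1.41) and Ndrg4 (1.79), the family members known from neurons, rose as well, whereas Ndrg1 stood at 515 and 429 and then 503 and 510 reads and did not pass the test (0.01).

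Aldh1l1, a folate enzyme and the gene whose control elements drive the Cre, had 1285 and 1250 reads in Ezh2 f/f, against 1280 and 1155 in Ezh2 cKO (chromosome 6, 90463409 to 90577185, plus strand). Its level was 77.4 ± 3.05 CPM in Ezh2 f/f, against 69.6 ± 4.20 CPM in Ezh2 cKO. The log2 fold change was -0.15 with a 95% interval of -0.36 to 0.05, and it did not pass the test (adjusted p = 0.175). Its overlapping non-coding genes held few reads, with 6 and 6 in Ezh2 f/f and none in Ezh2 cKO for Gm15756 and at most 3 for Gm45901 and Gm44236. Of the other folate enzymes and carriers 22 of 23 were tested, with 6 higher (27.3%) and 7 lower (31.8%) and a median log2 fold change of 0.01, both shares under the background (34.7% and 33.6%). Without Ezh2 cKO replicate 2 the number higher was 3, and without Ezh2 cKO replicate 1 the number lower was 4. The mitochondrial paralogue Aldh1l2 fell from 148 and 140 to 127 and 91 reads (-0.50, adjusted p = 0.04) and the cytoplasmic serine hydroxymethyltransferase Shmt1 from 350 and 254 to 81 and 74 (-2.05), while the glycine cleavage protein Gcsh rose from 548 and 549 to 1166 and 1029 (0.91) and the methionine synthase Mtr from 154 and 124 to 184 and 321 (0.77). Folr1, a folate receptor of the choroid plexus, fell by 4.32.

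Levels of different genes can be set side by side only per length, in FPKM. In both Ezh2 f/f libraries the order was Ndrg2, Hepacam, Aldh1l1, Fgfr3, Gjb6 and Gja1, with Gpr37l1 and S100b changing places between the libraries and Aqp4 last. Their means ran from 69.1 ± 5.04 FPKM for Ndrg2 down to 0.632 ± 0.168 FPKM for Aqp4, and the neighbours Gpr37l1 (0.968 ± 0.124) and S100b (0.836 ± 0.0691) did not differ beyond their spread. In Ezh2 cKO the order was Ndrg2 (138 ± 15.9), Gpr37l1 (63.1 ± 2.69), S100b (27.1 ± 0.668), Hepacam (24.4 ± 0.0658) and Aldh1l1 (15.8 ± 0.721), then Aqp4 (14.5 ± 1.09) and Gja1 (14.2 ± 0.146), which changed places between the libraries, and last Fgfr3 and Gjb6. The genes were thus closer together in level in Ezh2 cKO: the highest was 87.2 and 142 times the lowest in the Ezh2 f/f libraries, against 23.7 and 19.5 times in the Ezh2 cKO libraries. Their summed level was 117 and 126 FPKM and then 327 and 300 FPKM. Ndrg2 made up 56.2% and 57.9% of that sum in Ezh2 f/f, against 45.7% and 42.4% in Ezh2 cKO, and Gpr37l1 0.755% and 0.841%, then 19.9% and 20.4%. With principal transcript lengths Gja1 moved up to place 4 in Ezh2 f/f and to place 3 in Ezh2 cKO. In Ezh2 cKO the mean of Aqp4 (17.8 ± 1.34) then lay above that of Aldh1l1 (17.1 ± 0.780). These genes changed places between the libraries and did not differ beyond their spread.

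Dividing by Aldh1l1 of the same library takes out differences in library scaling. All 8 other genes had a higher ratio in both Ezh2 cKO libraries than in both Ezh2 f/f libraries. This follows from the levels above, since in CPM the 8 lay higher in Ezh2 cKO and Aldh1l1 lower, and is no separate result. Gpr37l1 went from 0.0542 and 0.0621 to 3.97 and 3.99 times the FPKM of Aldh1l1, S100b from 0.0545 and 0.0463 to 1.68 and 1.73, and Aqp4 from 0.0462 and 0.0301 to 0.837 and 0.992. Gja1 went from 0.164 and 0.177 to 0.862 and 0.933. The smaller changes were those of Fgfr3 (0.281 and 0.280, then 0.639 and 0.593), Ndrg2 (4.03 and 4.27, then 9.14 and 8.28) and Gjb6 (0.237 and 0.189, then 0.385 and 0.426). Hepacam moved least, from 1.31 and 1.33 to 1.49 and 1.60. These ratios were not tested, since 2 libraries against 2 allow no exact permutation p below 0.333.

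**Figure D4:**
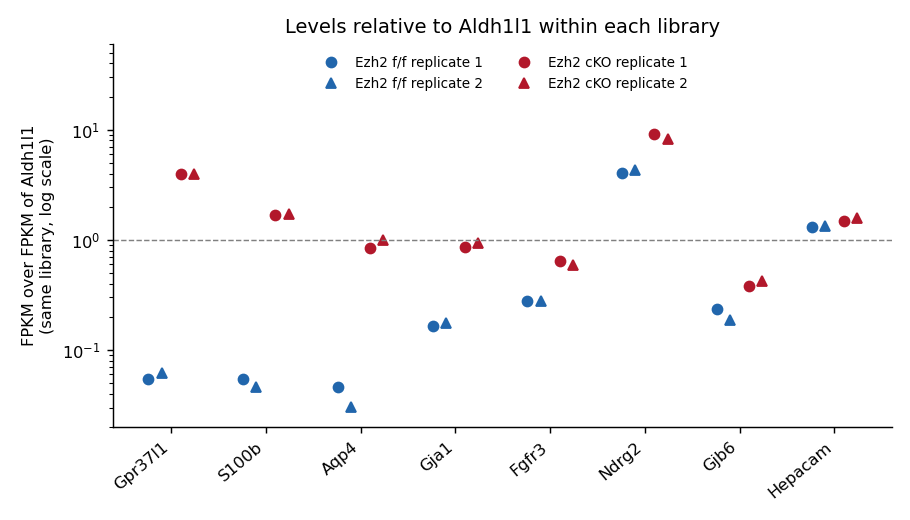
FPKM of each gene divided by the FPKM of Aldh1l1 in the same library (log scale), coloured as in the plot of levels; the dashed line marks a ratio of 1. Gpr37l1 and S100b crossed the line, from at most 0.0621 in Ezh2 f/f to at least 1.68 in Ezh2 cKO, and Hepacam stayed just above it in all 4 libraries.

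Other genes used to recognise astrocytes moved mostly with the 7 that rose. Of 30 such genes, all tested, 27 were higher (90.0%, background 34.7%), 0 were lower (edgeR, also at an unadjusted p of 0.05, and DESeq2) and 3 did not pass the test, with a median log2 fold change of 1.51. Slc39a12, a zinc transporter, was read 10 and 19 times in Ezh2 f/f, against 320 and 336 times in Ezh2 cKO (4.39), and Ntsr2, a neurotensin receptor, 72 and 43 times and then 1269 and 1073 times (4.26). The abundant secreted proteins Apoe and Cst3 rose by 1.43 and 1.23. Slc1a3, which encodes the antigen used for capture, went from 1664 and 1617 to 5334 and 5191 reads (1.59, adjusted p = 2.71e-09). The 3 that did not pass, like Hepacam and Aldh1l1, were the transcription factors Sox9 (190 and 202 reads, then 200 and 202, log2 fold change -0.06) and Nfia (1119 and 1053, then 1048 and 1113, log2 fold change -0.10) and the BMP receptor Bmpr1b (147 and 142, then 153 and 147, log2 fold change -0.04). Genes of radial glia and immature astrocytes counted 9 of 16 higher (56.3%, background 34.7%) and 6 lower (37.5%, near the background of 33.6%) and a median log2 fold change of 0.56. Hopx (2.12) and Ednrb (1.66) rose most, and the abundant Fabp7 and Ptn rose by 0.91 and 0.99, while the intermediate filament nestin (Nes) fell from 1676 and 1734 to 596 and 585 reads (-1.62) and the transcription factor Pax6 from 283 and 334 to 107 and 143 (-1.40).

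**Figure D5:**
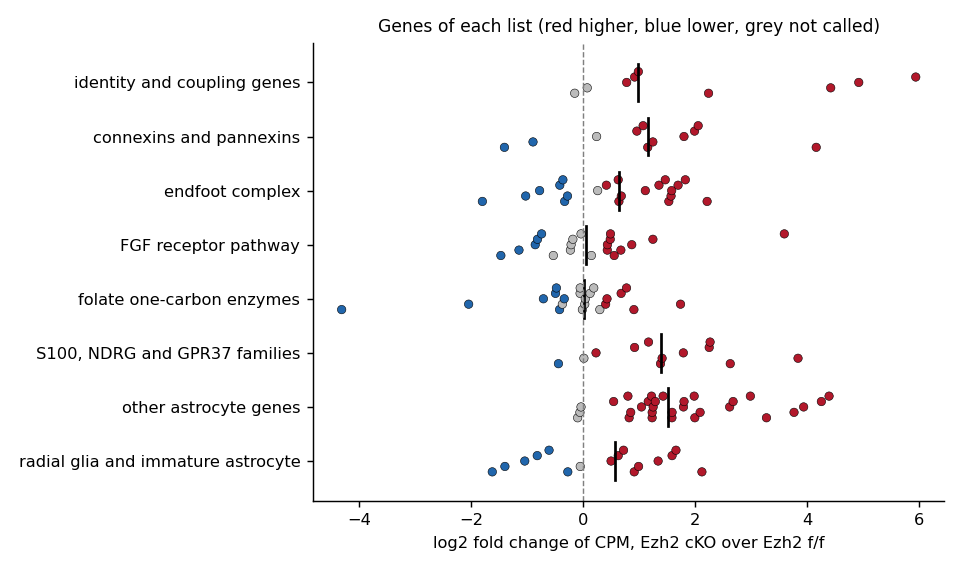
Log2 fold change of CPM in Ezh2 cKO over Ezh2 f/f for each tested gene of 8 lists, with red points for genes called higher, blue for lower and grey for those not called, and a black bar at the median of the list. The medians were 0.99 for the 9 identity and coupling genes, 1.15 for connexins and pannexins and 1.51 for other astrocyte genes, and lay close to 0 for the FGF receptor pathway (0.05) and the folate enzymes (0.01).

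The genes outside the 9 whose profile over the 4 libraries was closest to the median profile of the 9 were Septin4, Ech1, C1qb, Gstm5 and Pcdh15. Likeness was measured as the root mean square difference of the log2 CPM after centring each gene, which ran from 0.0225 for Septin4 to 0.0356 for Pcdh15. Their log2 fold changes ran from 0.98 (C1qb) to 1.06 (Septin4 and Pcdh15), near that of Fgfr3. C1qb, a complement component, is one of the microglia markers above. Over 4 libraries many genes share such a profile, and the likeness is given as a description.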

How the data were processed

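RNA sequencing libraries of 4 cortical astrocyte preparations from P5 mice were analysed, 2 Ezh2 f/f and 2 Ezh2 cKO, grouped by the labels. The authors deposited raw read counts per gene and FPKM values, and the submitters' processing notes name TopHat2 2.0.12, Bowtie2 2.2.3, HTSeq 0.6.0 and build mm9. The strand setting of the counting and any duplicate removal are not given in the sources used here. For all 29224 genes the deposited FPKM equalled the count divided by the library total and a whole-number length (within 0.01), the same in every library. Columns of the authors' own comparison (fold changes and p-values) were not used, and 0 columns of other samples were present.

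Counts were tested with edgeR 4.0.16 (R 4.3.3): filterByExpr, TMM scaling, quasi-likelihood test, Benjamini-Hochberg adjustment over all 16793 tested genes, called at 0.05. CPM are counts divided by the TMM-scaled library total, times 1000000, and 95% intervals come from the same fit. Before use the fit was run on simulated counts in which far fewer genes changed than were called here. That run does not bear on shifts as wide as those between these groups. Alternatives were DESeq2 1.42.0, its size factors in edgeR, scaling by total counts only, no filter, a mean of at least 50 counts, limma 3.58.1 on log2(FPKM + 1) or log2(FPKM + 0.1) for genes of at least 1 FPKM in 2 libraries and without that filter, a replicate block, and leaving out each library. Within each group the counts of the pair of libraries departed from each other beyond Poisson sampling (chi-square per degree of freedom 9.43 and 6.05). Each library was taken as 1 replicate, though such a departure does not show that the libraries came from separate animals.

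The 9 genes and the lists were chosen with earlier results of these data known. Genes named beside the 9 and Ezh2 were, for each list, the 2 with the largest rise and the 2 with the largest fall among those called with a mean of at least 1 CPM, every connexin or pannexin at that level, the 2 most abundant markers, and the 5 genes of at least 10 CPM nearest to the median profile of the 9. Some genes that this rule takes in are not reported here. Other genes were named after their values were seen. Among them were partners or paralogues of the 9 (Mlc1, Clcn2, Kcnj10, Dag1, Lama2, Lamb2, Lamc1, Fgfr2, Fgfrl1, Spry and Etv genes, Dusp6, Il17rd, Spred1, Spred2, Frs2, Frs3, Gpr37, Ndrg1, Ndrg3, Aldh1l2). The rest were overlapping genes, Opalin, and Slc1a3, Sox9, Nfia and Bmpr1b. Promoter windows came from RefSeq. Figures were drawn with matplotlib 3.10.9.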

Additional observations from a re-analysis of the deposited data

How the results depend on the processing

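All 9 genes kept their direction and their side of the threshold in each of the 13 alternative fits. Over these the log2 fold change of Gpr37l1 ran from 5.03 to 6.07, of S100b from 3.93 to 5.01, of Aqp4 from 3.25 to 4.72 and of Gja1 from 1.99 to 2.32, that of Hepacam from 0.02 to 0.16 and that of Aldh1l1 from -0.21 to -0.07. Leaving out each library in turn gave a median of the 9 from 0.865 (Ezh2 cKO replicate 1 left out) to 1.10 (its replicate 2 left out). With the replicate number as a block the 9 genes gave 7 higher and 0 lower, and all genes 5795 higher and 5599 lower, and no list count moved by more than 1.5 times. The numbers are not said to pair the libraries. Across the tested genes, the log2 difference between replicates 1 and 2 of Ezh2 f/f correlated at 0.119 with that of Ezh2 cKO. Some list counts moved more. With a mean of at least 50 counts, which leaves fewer genes to test, 4 connexins and pannexins were higher. With limma on log2(FPKM + 1) without a filter 3 FGF pathway genes were higher, 2 folate genes lower and 0 of the S100, NDRG and GPR37 families lower, and 4 endfoot genes were lower under each of the 3 limma fits. Leaving out each library in turn gave 4 to 9 FGF pathway genes higher, 3 to 7 folate genes higher and 4 to 8 lower, 4 to 6 endfoot genes lower, and 0 to 1 lower of the S100, NDRG and GPR37 families. The cause was not tested. Calls over all genes ran from 4677 to 6286 higher and from 4518 to 5747 lower. Principal transcript lengths, added after the data were seen, moved the ratio of Gja1 to Gjb6 to 2.07 for the Ezh2 f/f mean and 5.62 for the Ezh2 cKO mean. A separate level from CPM and a deposited gene length was not run, since the FPKM already hold that length. Genes with few reads, such as S100b with 19 and 23 in Ezh2 f/f, have a level there that rests on counting error of that size.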
